A study of Mus musculus with 2 samples.

Results

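The Wnt ligand genes Wnt2, Wnt2b, Wnt4, Wnt5a, Wnt5b and Wnt9a were followed through stromal cells sorted from the colon and the small intestine of mice that were healthy and had no treatment. They were chosen by name, without a threshold, and all 6 were listed among the 16381 genes of the colon and the 18262 genes of the small intestine. Each tissue was 1 library of sorted live cells negative for EPCAM (the epithelial marker CD326) and for CD45 (the marker of blood-derived immune cells), read with a droplet assay that counts the 3′ ends of polyadenylated RNA by molecular identifiers (UMIs). Colon tissue was digested for 60 min and small intestine for 45 min, and the labels give neither the strain, age, sex nor number of mice. With 1 library for each tissue no test between tissues was possible: a digestion, a mouse and a tissue cannot be told apart, and the 95% intervals given beside values cover counting error only.

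Wnt proteins are lipid-modified secreted signals that act over short distances. They are acylated by PORCN, carried to the cell surface by WLS, and bind Frizzled receptors together with the co-receptors LRP5 and LRP6 to stabilise β-catenin, or with receptors such as ROR1 and ROR2 to drive signalling that does not need β-catenin. In the gut, Wnt from the mesenchyme around the crypts helps to maintain the epithelial stem cells, and R-spondins from the same tissue amplify it. WNT2 and WNT2B are close relatives that act mainly through β-catenin, as WNT9A can. WNT4 has been found to act by both routes, and WNT5A and WNT5B are the classical ligands of the β-catenin-independent route.

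The authors' labels divided the cells into 3 fibroblast types, lymphatic endothelial cells (LECs), blood endothelial cells (BECs) and smooth muscle cells (SMCs). The fibroblast types were CD81- FBs, CD81+ trophocytes, which lie deep to the crypts, and PDGFRa-high SEMFs, the subepithelial myofibroblasts lining the epithelium. In the colon they held 3631 CD81- FBs, 875 trophocytes, 1105 SEMFs, 217 LECs, 53 BECs and 125 SMCs, and in the small intestine 2823, 1913, 1109, 2498, 524 and 468 cells. The libraries held 40684070 and 58134526 UMIs, with medians of 6598 and 5943 per cell, and 21 cell barcodes occurred in both. Marker genes went with the labels for most lists: 6 of 6 SMC markers were highest in SMCs in each tissue, 7 of 8 SEMF markers in SEMFs, 5 of 6 trophocyte markers in trophocytes, and 6 of 6 LEC markers (5 in the small intestine) in LECs. Of the 4 CD81- FB markers, all were highest there in the colon and 2 in the small intestine, where Adamdec1 was highest in the SMC label and Fbln1 in trophocytes. Cd81 itself, listed as a trophocyte marker, was highest in BECs of each tissue. The summed fibroblast markers reached 21437 CPM (UMIs per 1000000 UMIs of the type) in the small intestinal SMC label against 6499 CPM in the colon SMCs. Epithelial markers summed to at most 5.02 CPM and glial markers to at most 5.63 CPM in any type, while immune markers reached 404 CPM in colon BECs.

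In the mouse genome (GRCm38, GENCODE M21), the genes lie on 5 chromosomes: Wnt2 at chr6:17988940-18030585 on the minus strand, Wnt2b at chr3:104945272-104961921 (minus), Wnt4 at chr4:137277489-137299726 (plus), Wnt5a at chr14:28504750-28527448 (plus), Wnt5b at chr6:119432531-119544347 (minus) and Wnt9a at chr11:59306928-59333552 (plus). Their longest coding transcripts have 5 exons, or 4 for Wnt9a. No other gene lay on the same strand at the 3′ end of any of them, and the last 1000 bases of the coding transcripts of any pair shared no exact run longer than 11 bases. Gm2670 lies within Wnt5a and Fbxl14 within Wnt5b on the opposite strand, and Gm43846 lies in an intron of Wnt2b on the same strand. Whether the counting used strand is not given in the sources used here, so reads of these overlapping pairs are uncertain. RefSeq start-site windows of GRCm38.p6 (250 bases before the start and 50 after it) were found for 5 of the 6 genes. Of these, Wnt2 and Wnt2b each held a CCAAT box (CCAAT on either strand), and none of the windows of Wnt4, Wnt5b or Wnt9a did. Of the 32851 windows of that length 37.4% hold the box, so it is no particular trait of the pair. The 30 bases around it are shown to let the pair be compared, with the box in capitals. They run 5′ to 3′ in the direction of the gene, which is the minus strand, at chr6:18030502-18030531 for Wnt2 and chr3:104961756-104961785 for Wnt2b:
Wnt2: agtgcttggggaATTGGctgtgggcgaggc
Wnt2b: gccccgccccgtCCAATgagagctgcggcc
The box begins 74 bases before the RefSeq start in Wnt2, in the reverse orientation, and 64 bases before it in Wnt2b. The GENCODE starts of both genes lie further upstream, and both stretches of 30 bases fall inside the GENCODE spans given above. Whether the box lies before or after the start thus depends on the annotation. The GC box GGGCGG (either strand), held by 35.7% of all windows, occurred 2 times in the Wnt2 window, 4 times in that of Wnt2b, 8 times in that of Wnt4 and 5 times in that of Wnt9a, and 3, 0 and 2 times in the 3 windows of Wnt5b. TATAAA on either strand was in none of the members' windows and in 13.6% of all. These matches describe the letters of the windows only.

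The type with the highest Wnt2 level differed between the tissues. In the colon it had 21.9 CPM in CD81- FBs (20.1 to 23.8), 14.1 in LECs (7.88 to 23.2) and 14.0 in trophocytes (11.2 to 17.2), with 5.18 in SMCs, 3.71 in BECs and 0.134 in SEMFs. Small intestinal LECs had 214 CPM (206 to 223) and BECs 9.12 (5.57 to 14.1), with 2.73 in trophocytes, 1.07 in the SMC label, 0.767 in SEMFs and 0.496 in CD81- FBs. The interval of colon LECs overlapped those of both fibroblast types, whereas small intestinal LECs stood apart from every other type. By share, 83.1% of the colon's Wnt2 UMIs lay in CD81- FBs and 96.4% of those of the small intestine in LECs, the cells of the lacteals and submucosal lymphatics. Such shares also depend on how many cells of each type were captured, and few colon cells were LECs.

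The Wnt2 differences were large beside the counting error. In CD81- FBs, 541 colon UMIs stood against 10, which gave a log2 ratio (colon CPM over small intestinal CPM) of 5.46 (95% interval 4.57 to 6.53, a 44.1-fold difference). In trophocytes the log2 ratio was 2.36 (1.81 to 2.93, from 89 and 41 UMIs). In LECs it had the opposite sign, -3.93 (-4.77 to -3.20), with 15 UMIs in the colon and 2401 in the small intestine. In cells thinned to 3000 UMIs, 44.5% of 1946 small intestinal LECs (42.2 to 46.7, exact binomial) and 2.50% of 200 colon LECs (0.817 to 5.74) had a Wnt2 UMI. Unthinned, the shares were 55.3% and 6.45%.

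RNA from burst cells sets a floor under such values, so genes made by other cells were measured alongside. In the small intestine, 3 LEC genes (Ccl21a, Mmrn1, Lyve1) reached 0.110 to 0.223% of their LEC level in CD81- FBs and 0.247 to 0.323% in SEMFs. Wnt2 stood at 0.232% and 0.358% there, slightly above both ranges but on only 10 and 5 UMIs. Its counting intervals (0.238 to 0.912 CPM in CD81- FBs and 0.249 to 1.79 in SEMFs) take in levels within those ranges. The part of LEC RNA in these UMIs, and so in the log2 ratio of 5.46 in CD81- FBs, was not tested. In trophocytes Wnt2 stood at 1.27%, where the LEC genes ran from 0.0892 to 0.568%. In small intestinal BECs, the type with the next highest level, Wnt2 stood at 4.26% of its LEC level, below the LEC genes at 5.30 to 6.25%. The colon LECs carried more fibroblast RNA: 5 fibroblast genes (Dcn, Lum, Col1a1, Col1a2, Col3a1) had 4.39 to 10.6% of their fibroblast level there, against 1.61 to 1.93% in LECs of the small intestine. Wnt2 in colon LECs was at 64.3% of its level in CD81- FBs, above that range, although on 15 UMIs.

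Wnt2b, the relative of Wnt2, was highest in CD81- FBs and trophocytes in both tissues, and in the SMC label of the small intestine. Colon CD81- FBs had 37.9 CPM (35.5 to 40.4) and trophocytes 14.4 (11.6 to 17.7), followed by BECs at 7.42, SMCs at 6.47, LECs at 5.63 and SEMFs at 3.63. The small intestinal levels were 20.3 CPM in the SMC label (15.4 to 26.3), 18.3 in CD81- FBs (16.4 to 20.2), 17.2 in trophocytes (15.2 to 19.5), 2.30 in SEMFs, 0.912 in BECs and 0.892 in LECs. In the colon CD81- FBs stood above every other type, and in the small intestine the first 3 did not differ beyond their intervals. The log2 ratio was 1.05 in CD81- FBs (0.88 to 1.23), -0.25 in trophocytes (-0.61 to 0.09) and 0.66 in SEMFs (-0.30 to 1.67). In the SMC label it was -1.65 (-3.33 to -0.34), on 5 and 57 UMIs. Small intestinal SMC label cells also carried Adamdec1 and Dcn, and the 436 of 468 cells with at least 3 of 6 SMC markers had 19.4 CPM of Wnt2b, 9009 CPM of Adamdec1 and 7260 CPM of Dcn. The part of these fibroblast transcripts in the Wnt2b level was not tested.

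Wnt4 was shared between CD81- FBs and SEMFs in the colon but leaned to SEMFs in the small intestine. The colon levels were 208 CPM in CD81- FBs (203 to 214), 190 in SEMFs (180 to 200), 5.97 in trophocytes, 18.8 in LECs, 51.9 in BECs and 31.1 in SMCs. Those of the small intestine were 34.1 CPM in CD81- FBs (31.6 to 36.8), 113 in SEMFs (105 to 122), 0.932 in trophocytes, 1.07 in LECs, 1.37 in BECs and 26.4 in the SMC label. Trophocytes had the lowest Wnt4 level of all 6 types in each tissue, though in the small intestine their interval overlapped those of LECs and BECs. The log2 ratio was 2.61 in CD81- FBs (2.50 to 2.73), 0.75 in SEMFs (0.62 to 0.88) and 2.68 in trophocytes (1.76 to 3.68, on 38 and 14 UMIs). Of those 38 colon UMIs, 32 lay in cells with Xist UMIs only and 4 in cells with Y-linked UMIs only, too few for a ratio within the latter. At 3000 UMIs per cell, 34.9% of colon CD81- FBs and 34.9% of colon SEMFs had a Wnt4 UMI, compared with 7.79% and 27.1% in the small intestine. The 14 Wnt4 UMIs of colon BECs lay in 2 of 53 cells, both among the 3 BECs that had Xist and Y-linked UMIs together. The other BECs had none, and the part of droplets with more than 1 cell was not tested.

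**Figure D1:**
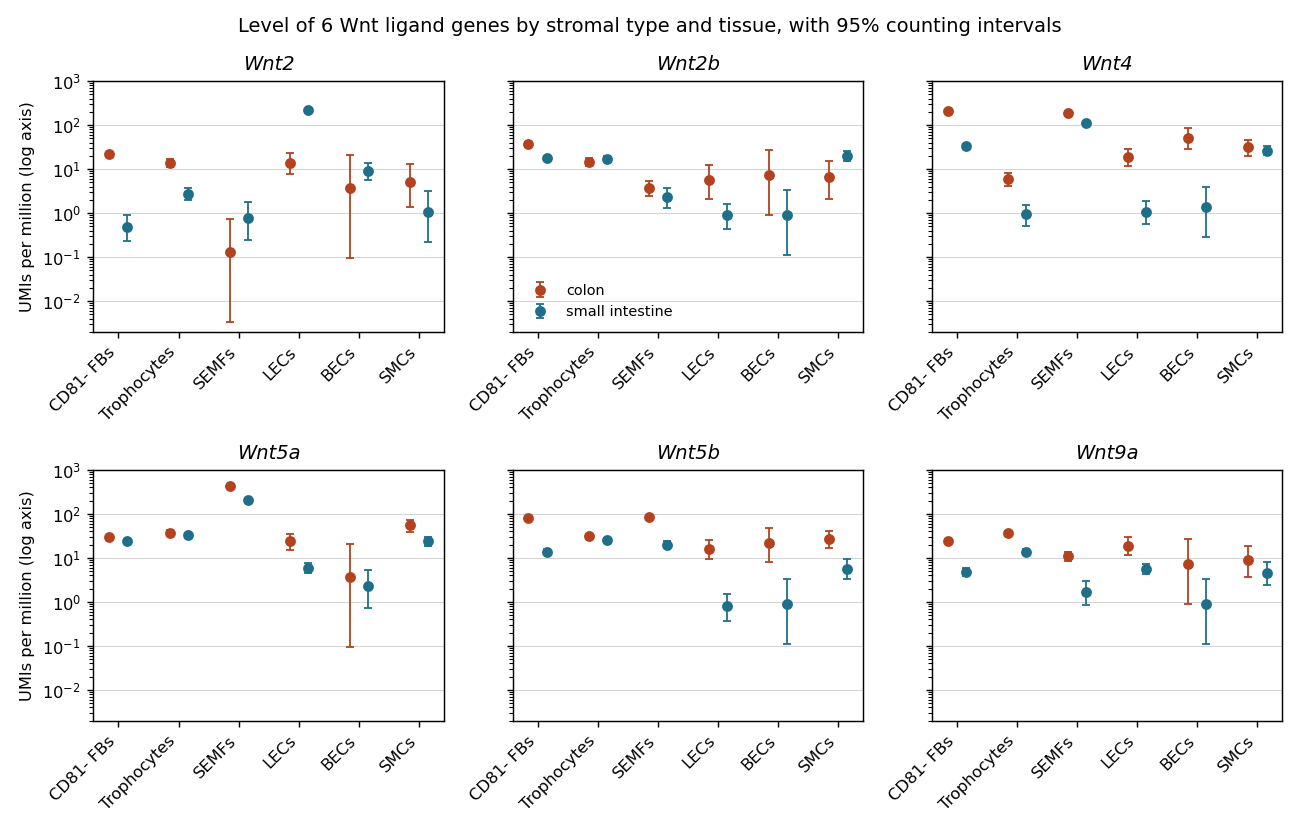
Level of each of the 6 genes in CPM on a log axis, by cell type, in the colon and the small intestine (1 library each); bars are 95% counting intervals. Wnt2 is highest in LECs of the small intestine (214) and in CD81- FBs of the colon (21.9), and Wnt5a in SEMFs of both tissues.

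Wnt5a marked SEMFs in both tissues. It had 421 CPM in colon SEMFs (406 to 436) and 209 CPM in those of the small intestine (198 to 221), above every other type. The other colon types had 54.4 CPM (SMCs), 37.2 (trophocytes), 29.7 (CD81- FBs), 23.5 (LECs) and 3.71 (BECs). The small intestinal ones had 33.4 CPM (trophocytes), 23.5 (CD81- FBs and the SMC label each), 5.89 (LECs) and 2.28 (BECs). SEMFs held 74.9% of the colon's Wnt5a UMIs and 55.1% of those of the small intestine. The log2 ratio was 1.01 in SEMFs (0.92 to 1.10), 0.34 in CD81- FBs (0.17 to 0.51), 0.16 in trophocytes (-0.07 to 0.38) and 1.21 in SMCs (0.62 to 1.79). The SEMF value fell to 0.87 when levels were averaged cell by cell. In SMCs, 14 of the 42 colon UMIs lay in the 3 cells with Xist and Y-linked UMIs together. The SMC ratio ran from 0.53 to 1.51 over the alternatives tried. In LECs it was 1.99 (1.27 to 2.68), but 13 of the 25 colon UMIs came from 1 cell, and the value fell to 1.16 without it and to 0.31 without the 5% of cells with the most UMIs.

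Wnt5b, the paralogue of Wnt5a, was spread over all 3 fibroblast types. In the colon it had 83.1 CPM in SEMFs and 80.0 in CD81- FBs, which did not differ beyond their intervals (76.7 to 89.9 and 76.5 to 83.6), 30.5 in trophocytes, 27.2 in SMCs, 22.2 in BECs and 15.96 in LECs. Small intestinal trophocytes had 25.4 CPM and SEMFs 19.9, with overlapping intervals (22.9 to 28.0 and 16.7 to 23.7), followed by 13.9 in CD81- FBs, 5.70 in the SMC label, 0.912 in BECs and 0.803 in LECs. Its tissue ratio differed widely among the fibroblast types, at 2.53 in CD81- FBs (2.34 to 2.71), 2.06 in SEMFs (1.78 to 2.34) and 0.27 in trophocytes (0.01 to 0.52).

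Wnt9a had its highest level in trophocytes of both tissues. The colon levels were 36.1 CPM in trophocytes (31.6 to 41.1), 24.4 in CD81- FBs, 18.8 in LECs, 10.9 in SEMFs, 9.06 in SMCs and 7.42 in BECs. Small intestinal trophocytes had 13.8 CPM (12.02 to 15.9), LECs 5.71, CD81- FBs 4.81, the SMC label 4.63, SEMFs 1.69 and BECs 0.912. Trophocytes stood above every other type in each tissue. Its log2 ratio was above 1 in all 3 fibroblast types, at 2.34 in CD81- FBs (2.03 to 2.66), 1.38 in trophocytes (1.11 to 1.66) and 2.69 in SEMFs (1.78 to 3.75). In LECs of the small intestine Wnt9a stood at 41.3% of its trophocyte level, where the 5 fibroblast genes stood at 1.61 to 1.93%, and in colon LECs at 52.0%.

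A difference was counted where the log2 ratio passed 1 in either direction and both libraries together had at least 30 UMIs. In CD81- FBs, 5 of the 6 genes were above 1 and none below, where 8.85% of the 14279 genes with that many UMIs were above and 11.7% below, and Wnt5a was the remaining gene. In trophocytes 3 were above 1 (Wnt2, Wnt4, Wnt9a) and none below, where 6.85% of all genes were above and 9.31% below. In SEMFs 3 were above 1 (Wnt5a, Wnt5b, Wnt9a) and none below, where 7.51% of all genes were above and 16.2% below, and Wnt2 had too few UMIs to be counted. In LECs 3 were above 1 (Wnt4, Wnt5a, Wnt9a) and 1 below (Wnt2), where 5.95% of all genes were above and 15.9% below. Colon LECs held Wnt4 at 9.01% and Wnt5a at 5.58% of their highest fibroblast level, inside the range of the fibroblast genes there. In SMCs 2 were above 1 (Wnt5a, Wnt5b) and 1 below (Wnt2b), where 4.38% of all genes were above and 19.6% below. In BECs no member reached 30 UMIs, with 5.8% of all genes above and 18.8% below. The median gene had a log2 ratio between -0.32 and -0.10 in these 6 types.

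In all fibroblasts pooled, the members' median log2 ratio was 1.79, where that of all 15283 genes was -0.15. There 4 members were above 1 and none below, where 9.19% of all genes were above and 10.2% below, and Wnt2b (0.83, 0.69 to 0.98) and Wnt5a (0.92, 0.85 to 1.00) lay within the limit. Relative to the median gene Wnt5a passed 1 (1.08) and Wnt2b did not (0.98), and in SEMFs Wnt4 passed it (1.07).

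**Figure D2:**
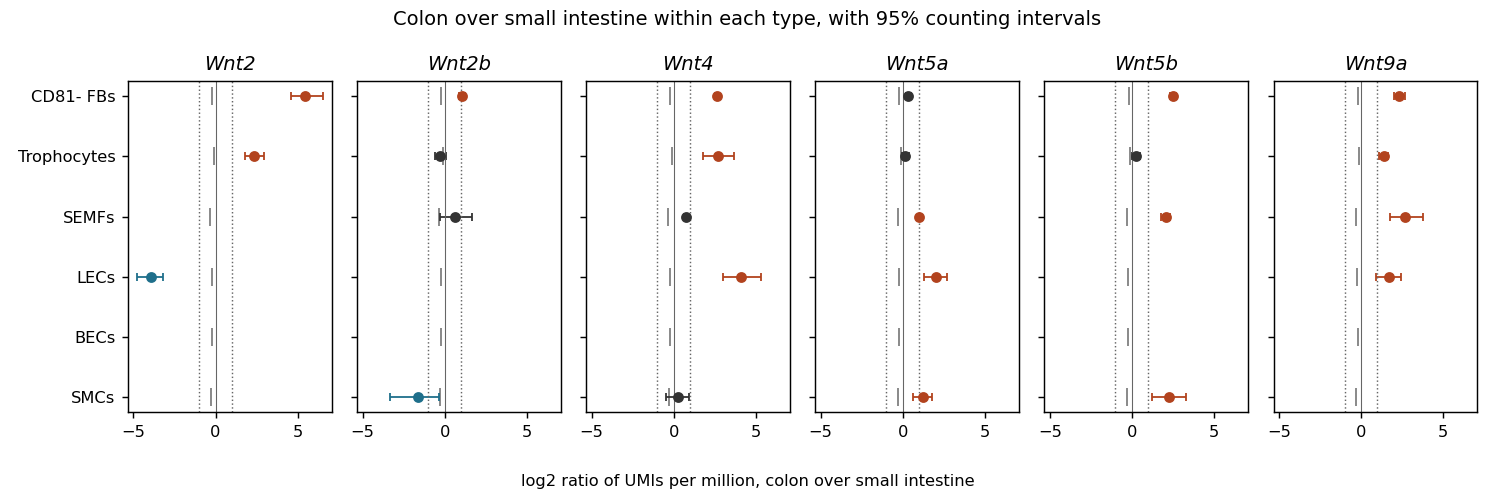
Log2 ratio of CPM, colon over small intestine, of each gene within each cell type; bars are 95% counting intervals, dotted lines mark -1 and 1, the grey tick is the median gene of that type, and rows with only the tick have under 30 UMIs. Wnt2 lies at 5.46 in CD81- FBs and at -3.93 in LECs.

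For 2 of the 6 genes, Wnt5a (SEMFs) and Wnt9a (trophocytes), colon and small intestine had their highest level in one and the same type, as did 45% of 13934 genes with at least 30 UMIs in each tissue. Wnt4 became the third when levels were averaged cell by cell, counted as shares of thinned cells, or taken from colon cells with Y-linked UMIs only.

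Colon fibroblasts more often carried several of these ligands at once. At 3000 UMIs per cell, 17.2% of colon CD81- FBs had UMIs of exactly 2 of the 6 genes and 2.77% of 3 or more, compared with 2.49% and 0.223% in the small intestine. In SEMFs these shares were 27.5% and 5.85% in the colon and 12.5% and 1.30% in the small intestine. Most single members were also seen in a larger share of the colon cells of these types. The part of these single shares in the cells with several members was not tested. No member was seen in 38.3% of colon CD81- FBs and 78.6% of those of the small intestine. Small intestinal LECs had exactly 1 member in 45.1% of cells and 2 in 1.34%.

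Within a type, co-detection was read as the share of cells with a UMI of the second gene among cells with and without the first, at 3000 UMIs per cell and with at least 20 cells positive for each gene. Of 53 such pairs over the fibroblast types and LECs, 47 had overlapping intervals, 4 were higher in the cells with the first gene and 2 lower. All 6 that stood apart involved Wnt4.

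Wnt5b was more frequent in CD81- FBs with Wnt4 in both tissues. In colon CD81- FBs, Wnt5b was detected in 23.5% of the 1208 cells with Wnt4 (21.1 to 26.0) and 17.4% of those without (15.8 to 19.0). In colon SEMFs the shares were 25.7% (21.3 to 30.4) and 17.97% (15.2 to 21.04). Split by sex-linked RNA, the SEMF intervals overlapped in both sets: 33.0% (24.2 to 42.8) and 19.3% (14.3 to 25.3) with Y-linked UMIs only, and 24.7% (18.4 to 31.9) and 17.7% (13.7 to 22.2) with Xist UMIs only. In small intestinal CD81- FBs they were 9.05% (5.54 to 13.8) of the 210 cells with Wnt4 and 3.22% (2.56 to 3.99) of those without. In small intestinal SEMFs they were 8.09% and 3.70%, with intervals that overlapped (5.14 to 11.99 and 2.45 to 5.34). Wnt5a followed the same course in small intestinal CD81- FBs, in 14.3% (9.85 to 19.8) and 5.71% (4.83 to 6.70). In SEMFs, where most Wnt5a lay, the Wnt5a shares with and without Wnt4 overlapped, at 60.5% and 56.8% in the colon and 40.8% and 42.1% in the small intestine.

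Wnt4 was less frequent in colon CD81- FBs with Wnt2 or Wnt2b, but in 3 of 4 cases the intervals overlapped when the cells were split by sex-linked RNA. Of colon CD81- FBs with Wnt2, 24.2% had Wnt4 (18.7 to 30.4), and of those without Wnt2, 35.6% (34.0 to 37.3). With and without Wnt2b the Wnt4 shares were 26.5% (22.0 to 31.4) and 35.9% (34.2 to 37.6). In cells with Y-linked UMIs only, the Wnt2 pair gave 13.6% (6.04 to 24.98) and 27.7% (24.91 to 30.7) and the Wnt2b pair 19.6% (12.4 to 28.6) and 27.7% (24.8 to 30.7), with overlapping intervals. In cells with Xist UMIs only, the Wnt2 intervals overlapped as well, at 31.4% (22.5 to 41.3) and 43.3% (40.7 to 45.9). The Wnt2b intervals stood apart there, at 28.6% (21.6 to 36.4) and 44.0% (41.4 to 46.7). In small intestinal CD81- FBs the Wnt2b pair gave 2.94% and 8.05%, from 4 cells with both genes and with intervals that overlapped (0.807 to 7.36 and 7.02 to 9.17). Before thinning, cells with and without Wnt4 had medians of 6912.5 and 6714 UMIs in colon CD81- FBs, 6966 and 7151 in those of the small intestine, and 6132 and 6701 in colon SEMFs. Depth differed more for some other first genes, such as Wnt5a in colon SEMFs (6928 and 5951) and Wnt5b in small intestinal SEMFs (5040 and 5888).

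**Figure D3:**
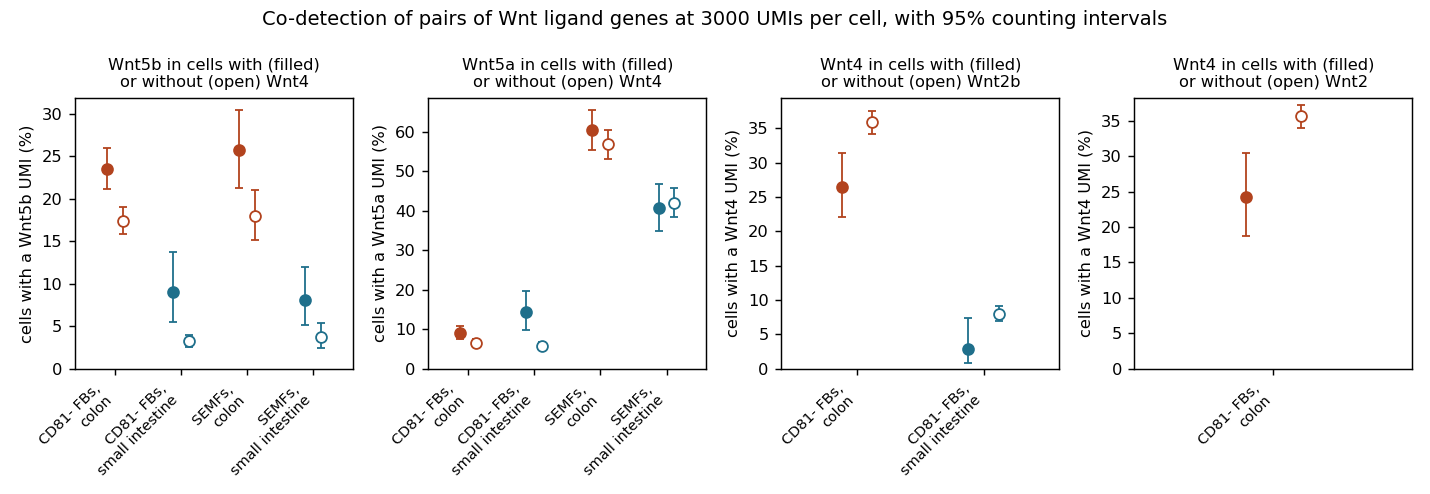
Share of cells (%) with a UMI of the second gene among cells with (filled) and without (open) a UMI of the first, in CD81- FBs and SEMFs of the colon (red) and small intestine (blue), each cell thinned to 3000 UMIs; bars are 95% exact binomial intervals. Wnt5b is more frequent in CD81- FBs with Wnt4 (23.5% against 17.4% in the colon). Wnt4 is less frequent in colon CD81- FBs with Wnt2b or Wnt2, where most intervals overlap once cells are split by sex-linked RNA. The small intestinal Wnt2b intervals overlap.

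The other genes of the pathway and marker lists were then compared between CD81- FBs with and without a Wnt4 UMI, in CPM from all UMIs of the same cells. Among small intestinal cells, 12 of 79 listed genes were above 1 on the log2 scale and 22 below, where 4.32% of all 12762 genes were above and 5.85% below. In the colon, 6 of 84 were above 1 and 8 below, where 0.987% of 13169 genes were above and 1.27% below. The genes named in this comparison were chosen after their values were seen.

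Cells with Wnt4 had less Grem1, a secreted BMP antagonist of trophocytes, at 138 CPM against 445 in the colon (log2 ratio -1.69, -1.78 to -1.60) and 32.0 against 179 in the small intestine (-2.49, -2.93 to -2.08). They had less Rspo3, an R-spondin, at 35.7 against 74.4 CPM in the colon (-1.06, -1.24 to -0.88) and 27.4 against 66.8 CPM in the small intestine (-1.28, -1.76 to -0.84). Rspo1, another R-spondin, was higher in the colon cells with Wnt4, at 7.84 against 3.71 CPM (1.08, 0.55 to 1.61), and had 2 UMIs with Wnt4 and 79 without in the small intestine (-1.72, -4.79 to 0.18). Complement C3 was lower too, at -1.28 in the colon and -2.47 in the small intestine. The pericyte marker Rgs5 was also below the limit in each tissue, at -2.05 in the colon. Of the other pericyte markers, Abcc9 and Notch3 were below it in the colon, but Kcnj8 was above 1 in the small intestine. Bmp7, a BMP ligand of SEMFs, was higher, at 41.4 against 19.7 CPM in the colon (1.07, 0.85 to 1.29) and 18.3 against 4.68 CPM in the small intestine (1.96, 1.29 to 2.59). Among colon cells with Xist UMIs only, Rspo3 (-0.93) and Bmp7 (0.95) stayed short of the limit. Tnfrsf19, a receptor gene that responds to Wnt, was likewise higher, at 1.61 in the colon and 1.49 in the small intestine. Of the 6 listed trophocyte markers, Grem1 and C3 were below -1 with Wnt4 in the colon. In the small intestine Cd34, Grem1, Ackr4, Pi16 and C3 were below it. None was above 1 in either tissue.

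Some listed genes passed the limit among the small intestinal cells while their colon values lay within it. Dkk2, a secreted Wnt inhibitor, had 11.7 CPM with Wnt4 and 214 without (-4.19, -4.94 to -3.53) against a colon ratio of 0.41. Rspo2 had 4.57 and 34.6 CPM (-2.92, -4.24 to -1.87, colon -0.68), and Apcdd1, a membrane Wnt inhibitor, 24.2 and 115 CPM (-2.25, -2.76 to -1.78, colon 0.08). The difference between the tissues was not tested. The contractile genes Acta2 (1.44) and Myh11 (1.56) were higher there with Wnt4 but lower in the colon (-0.66 and -1.26). Foxl1, a forkhead factor of subepithelial cells, had 22.8 CPM with Wnt4 and 2.40 without in the small intestine (3.25, 2.57 to 3.93), with a colon ratio of 0.28. The 8 SEMF markers summed to 4.50 UMIs per thinned cell with Wnt4 and 3.60 without in the small intestine, and 3.56 and 3.52 in the colon. Their part in these differences was not tested.

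**Figure D4:**
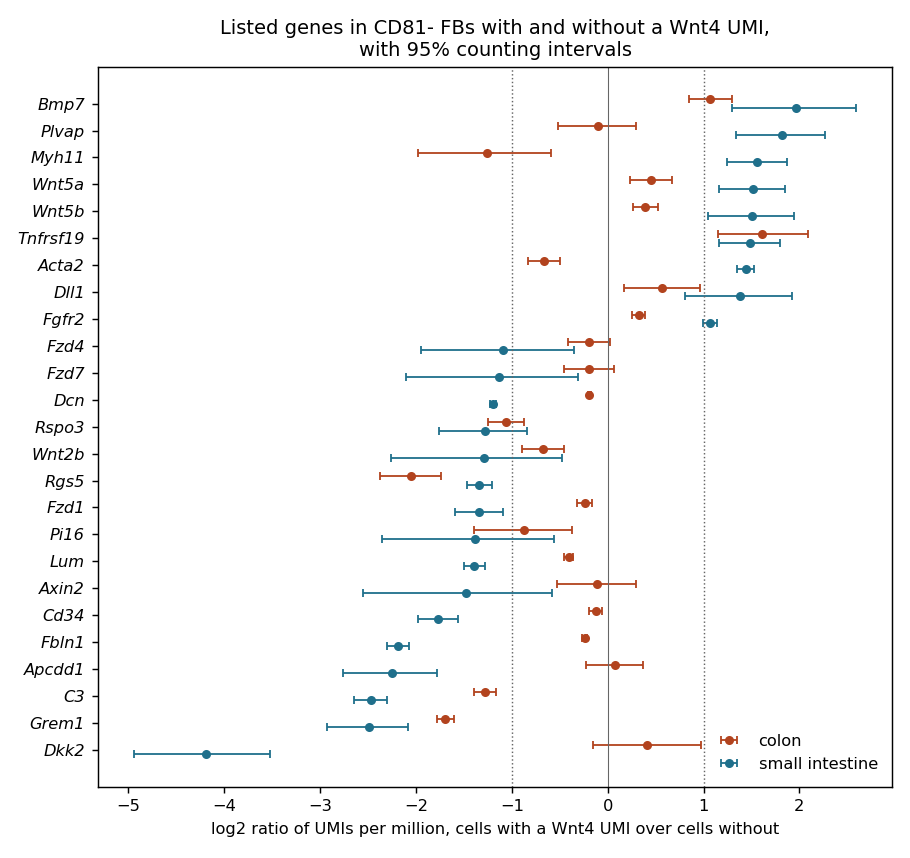
Log2 ratio of CPM in CD81- FBs with a Wnt4 UMI over those without, in the colon and small intestine, for the 25 listed genes with at least 100 UMIs in each tissue and a ratio beyond 1 in either; bars are 95% counting intervals and dotted lines mark -1 and 1. Grem1, C3, Rspo3 and Rgs5 lie below -1 in both tissues and Bmp7 and Tnfrsf19 above 1 in both.

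CD81- FBs with Wnt2b had less Acta2, at 32.1 against 69.8 CPM in the colon (-1.12, -1.46 to -0.80) and 142 against 354 CPM in the small intestine (-1.32, -1.57 to -1.08). In the colon 3 of 84 listed genes were above 1 with Wnt2b and 5 below, where 0.729% of all genes were above and 2.98% below. Among those of the small intestine none of 79 was above 1 and 7 were below, where 1.96% of all genes were above and 3.85% below. Colon CD81- FBs with Wnt2 had more Pi16, a marker of adventitial fibroblasts, at 32.8 against 6.07 CPM (2.43, 1.94 to 2.91), but the ratio was 2.29 among cells with Y-linked UMIs (11 and 36 UMIs) and 0.41 among those with Xist (-0.96 to 1.52, on 7 and 73 UMIs). Only Pi16 was above 1 there and 8 listed genes were below, where 1.44% of all genes were above and 4.78% below.

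Small intestinal LECs with and without Wnt2 differed in RNA of other cells. Of 69 listed genes, 2 were above 1 and 26 below, where 0.342% of 11109 genes were above and 3.01% below. The 2 above were Fzd5, a Frizzled gene, and Flt1, a BEC marker. Those below included the fibroblast genes Dcn (129 against 702 CPM) and Adamdec1 (22.3 against 182 CPM) and the contractile gene Acta2 (11.04 against 90.8 CPM). The shares of cells differed less than these pooled levels. Among thinned LECs, Dcn was seen in 24.5% of those with Wnt2 and 23.9% of those without. For Adamdec1 the shares were 6.24% and 9.71%, and for Acta2 1.73% and 4.16%. The Dcn levels thus do not show that more of the LECs without Wnt2 held Dcn. Wnt9b, another Wnt ligand, had 13.6 CPM in LECs with Wnt2 and 7.04 CPM in those without (0.95, 0.35 to 1.57). The part of the other cells' RNA in the share of LECs without Wnt2 was not tested.

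SEMFs with and without Wnt4 were compared in the same way. Among those of the small intestine 1 of 59 listed genes was above 1 (Foxl1, 1.46, 0.83 to 2.10) and 3 were below, the LEC genes Ccl21a, Mmrn1 and Lyve1, where 0.609% of all genes were above and 1.01% below. In the colon 4 of 62 were above 1 (Dll1, Lgr5, Nkd2 and Plvap) and 5 below, where 1.71% of all genes were above and 1.3% below. Grem1, Rgs5 and C3 were below on 35 to 41 UMIs in all. The other two were Wif1, a secreted Wnt inhibitor, at 11.9 against 41.9 CPM (-1.82, -2.43 to -1.25), and Tagln, a contractile gene, at 519 against 1425 CPM (-1.46, -1.55 to -1.37).

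The colon library held cells that differed in sex-linked RNA: 2700 cells had UMIs of Xist and none of 4 Y-linked genes, 1751 the reverse, 154 both and 1413 neither. In the small intestine Xist was not listed, and 6896 of 9359 cells had a Y-linked UMI. Wnt4 was lower in the colon CD81- FBs with Y-linked UMIs, at 154 CPM against 260 CPM in those with Xist (log2 ratio -0.76, -0.86 to -0.66), while in SEMFs the values were 171 and 194 CPM (-0.18, -0.36 to 0.00). Wnt5a was higher in SEMFs with Y-linked UMIs, at 499.7 against 383.7 CPM (0.38, 0.27 to 0.49). In trophocytes Wnt5a was lower with Y-linked UMIs (-0.61, -1.07 to -0.17), as was Wnt4 on 4 and 32 UMIs (-2.43, -4.39 to -0.93). The other 4 genes had ratios between -0.02 and 0.14 in pooled fibroblasts, with intervals that held 0. By type, the intervals of Wnt9a in SEMFs (0.91, 0.17 to 1.66) and Wnt2b in trophocytes (0.76, 0.08 to 1.45) did not hold 0. How many mice these cells came from is not given, so a difference between animals and one between sexes cannot be told apart.

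The tissue ratios of both genes had the same sign within each set of colon cells. Against the small intestine, Wnt4 in CD81- FBs had a log2 ratio of 2.17 with the Y-linked cells alone and 2.93 with the Xist cells alone. Wnt5a in SEMFs had 1.26 and 0.87, so that it passed 1 only with the Y-linked cells. Of colon CD81- FBs with Wnt4, 54.8% were Xist cells, and of those without, 39.7%. Within the Y-linked cells the shares of CD81- FBs with Wnt5b were 29.0% with Wnt4 (23.7 to 34.7) and 19.2% without (16.4 to 22.2), and within the Xist cells 22.8% (19.7 to 26.2) and 17.2% (14.8 to 19.8), where the intervals overlapped. Grem1 was lower with Wnt4 in both sets, at -1.92 and -1.55.

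**Figure D5:**
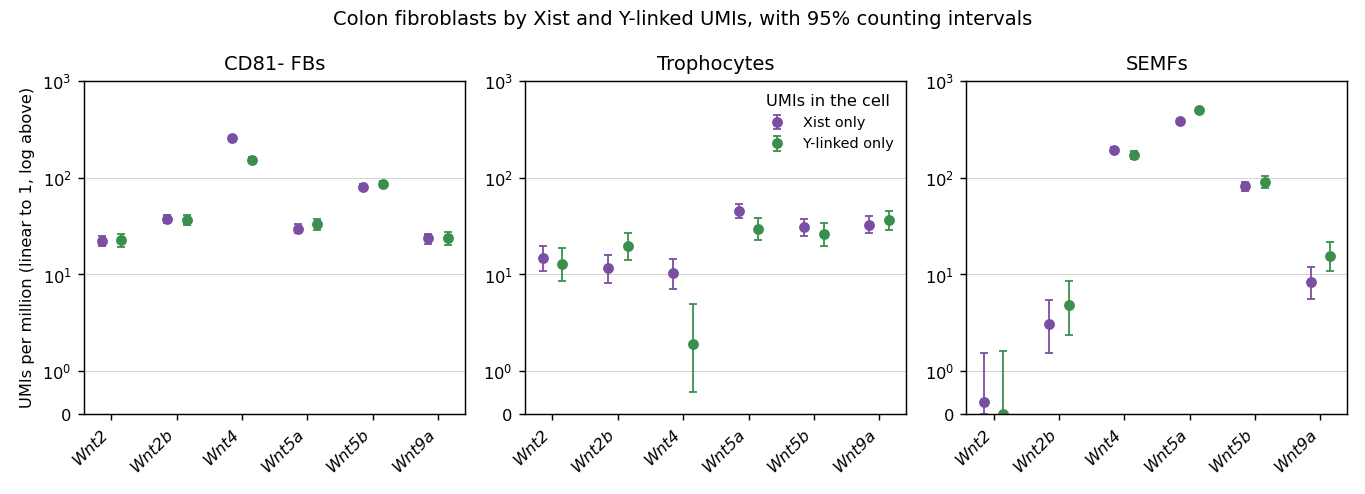
Level of each gene in CPM in the 3 fibroblast types of the colon, separately for the Xist cells and the Y-linked cells; the axis is linear up to 1 and logarithmic above, and bars are 95% counting intervals. Wnt4 in CD81- FBs is lower in the Y-linked cells (154 against 260).

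Of 59 other genes of the Wnt pathway, 39 were listed in both tissues, and in pooled fibroblasts 6 were above 1, 9 below and 24 within, with a median of -0.17, beside the 9.19% and 10.2% of all genes. Of the other ligands, Wnt6 was above 1 (3.48, 2.68 to 4.38, with 3.74 and 0.336 CPM), and Wnt10b and Wnt11 were within. Wnt9b was listed in the small intestine alone, with 9.81 CPM in LECs (8.07 to 11.8). The secretion genes Wls (0.44, 0.39 to 0.49) and Porcn (0.12, -0.09 to 0.33) were within the limit, and Wls was highest in colon SMCs at 269 CPM and in small intestinal SEMFs at 187 CPM.

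Frizzled receptors and co-receptors beyond the limit all had lower levels in the colon. Of 8 Frizzled genes 2 were below -1 and none above 1, Fzd3 (-1.38, -1.69 to -1.08) and Fzd6 (-1.56, -2.75 to -0.50), and the most abundant were Fzd1 in colon CD81- FBs (226 CPM) and Fzd2 in small intestinal SEMFs (242 CPM). Of 6 co-receptors 2 were below, the WNT5A receptors Ror2 (-1.08, -1.14 to -1.02) and Ror1 (-1.74, -1.78 to -1.70), of which Ror1 had 971 CPM in small intestinal SEMFs. Of 3 R-spondins 1 was below, Rspo2 (-4.49, -4.77 to -4.22), and Rspo3 was highest in LECs of both tissues, at 173 and 281 CPM. Of 7 secreted inhibitors 2 were above, Sfrp4 (1.92, 1.60 to 2.25) and Sfrp2 (7.41, 6.36 to 8.73), and 1 below, Dkk2 (-4.98, -5.18 to -4.79). Sfrp1 was the most abundant of them, at 911 and 1482 CPM in CD81- FBs. Of 3 genes for the receptors and turnover of R-spondins 1 was above, Lgr5 (3.57, 2.53 to 4.83), and Lgr4 had 0.06 (-0.10 to 0.21). Of 7 genes that respond to Wnt 2 were above, Nkd2 and Lef1, and 3 below, Tnfrsf19, Nkd1 and Apcdd1, from -2.35 for Apcdd1 (-2.48 to -2.22) to 6.55 for Lef1 (5.18 to 8.43). Fzd6, Ror2, Sfrp4, Lgr5, Nkd1, Nkd2 and Tnfrsf19 are named because they passed the limit, after their values were seen.

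Likeness to other genes was measured as Pearson's r over the 12 profiles of 6 types in 2 tissues, which share libraries and cell types. Among 9517 genes, Wnt2 was most like Mest (0.90), Chchd10 (0.89) and Triobp (0.87), and Wnt2b like C1qtnf3 (0.96), Matn2 (0.95) and Fbln1 (0.95). Wnt4 was most like Cxcl14 (0.94), B4galnt1 (0.91) and Bmp5 (0.91), and Wnt5a like Nrg2 (0.95), F3 (0.94) and Akr1b8 (0.94). Wnt5b was most like Opcml (0.94), Tradd (0.94) and Armcx6 (0.94), and Wnt9a like Blvrb (0.92), Igfbp6 (0.92) and Npm1 (0.87). Pearson's r does not measure the size of a change, and some of these genes varied little over the profiles. Npm1 ran from 291 to 495 CPM and Tradd from 12.8 to 28.1 CPM. Of these 18 names, 5 to 10 were kept under the 3 alternatives tried. Among the members themselves the highest r was 0.70 between Wnt4 and Wnt5b and the lowest -0.53 between Wnt2 and Wnt5a.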

How the data were processed

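Sorted stromal cells of 1 colon and 1 small intestine library were read with the 10x 3′ assay. The authors deposited raw UMI counts per gene and cell, natural log normalized values and a cell type label for each cell. Per the submitters' processing notes, Cell Ranger 7.1.0 and Seurat 4 were used with the mouse build mm10 (GRCm38), and other steps, doublet treatment among them, are not given in the sources used here. The deposited natural log values equal ln(1 + 10000 × UMIs / total UMIs of the cell). Here UMIs were summed over the cells of each label (colon BECs pool capillary, arterial and venous labels) and divided by all UMIs of those cells. The 8 pericytes and 4 proliferating cells of the colon and the 24 proliferating cells of the small intestine were left out. Intervals at 95% are exact Poisson for CPM, exact binomial (Clopper-Pearson) for shares and exact conditional binomial for ratios. They cover counting error only. No test was made, since each tissue had 1 library. A count of 0 allows up to 3 UMIs. Thinning drew 3000 UMIs per cell without replacement and left out shallower cells. Genes named were the members, the 3 most like each of them by Pearson's r of log2(CPM + 1) (at least 100 UMIs, detected in 10% of the cells of a type), and, of each pathway list, the most abundant and those with the highest and lowest ratio. The members and lists were chosen with earlier results of these data known. The alternatives tried were other totals, normalizations, depths, minimum counts and cell sets. Python 3.11.15, NumPy 2.4.6, pandas 2.3.3 and SciPy 1.17.1 were used, and the ratio and its interval were tested on simulated data.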

Additional observations from a re-analysis of the deposited data

Results flagged for a closer look

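Wnt2 and Wnt2b differed between tissues in opposite directions in different cell types, each from 1 library per tissue, and the difference between types was not tested. Wnt2 had a log2 ratio of colon over small intestine of 5.46 in CD81- FBs and 2.36 in trophocytes but -3.93 in LECs. Wnt2b had 1.05 in CD81- FBs but -1.65 in the SMC label, the latter on 5 and 57 UMIs.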

How the results depend on the processing

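No paired analysis was possible because each tissue had 1 library and no replicate number. No member's ratio beyond 1 changed sign under any alternative. Of the 18 member and type cases beyond 1 in either direction, 11 were left with a minimum of 100 UMIs. The number of the 72 gene, type and tissue cases in which over 10% of cells had a UMI was 9 at 3000 UMIs per cell and 25 without thinning. Of the member pairs, 24 of 53 had a higher share of the second gene in cells with the first at 3000 UMIs, and 39 of 66 without thinning. Of the 18 most like genes, 10 were kept with log2(CPM + 10), 6 with Spearman's rho and 5 without BECs. The other counts stayed within 1.5 times the main one, among them 14 to 19 for the cases beyond 1. The colon capillary label alone gave no member 30 UMIs. In pooled fibroblasts Wnt4 ran from 1.45 (fibroblast types weighted equally) to 2.57 (Xist cells of the colon). Splitting the colon cells in co-detection was added after seeing the data; in the Y-linked cells 38 of 41 pairs and in the Xist cells 40 of 43 kept their sign. Few UMIs limit BECs, colon LECs and SMCs most.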
